A study of Oryza sativa Indica Group with 12 samples.

Results

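GLK1 and 5 genes of chlorophyll synthesis were followed on 12 Affymetrix rice arrays. The 6 genes are GLK1, CHLH, LOC_Os01g17170 (a magnesium-protoporphyrin IX monomethyl ester cyclase, here called the cyclase), PORA, CAO and CHLP. They were taken by name, with every probe set that the array annotation and RefSeq pair with GLK1, CHLH, PORA, CAO and CHLP, and with the single probe set that the study's tables pair with the cyclase. This gave 7 probe sets of 57258 on the array once control probe sets were set aside: CHLH has 2 and each other gene has 1. The genes were chosen on their measured log2 differences between KM and KP and between KR and KM, which were already known. Those differences, and KR against KP, which is their sum, are therefore given as descriptions without a p value.

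All plants were hydroponic seedlings of the indica cultivar IR64, and RNA came from whole seedlings without the seed. Each group holds 3 arrays that the labels call biological replicates, and the labels do not say how many plants each array pooled. KR seedlings had 5 days of full medium, 5 days without potassium and then 6 h with 0.409 mM K2SO4 again. KM seedlings had the 5 days of full medium and the 5 days without potassium (0 mM K2SO4). KP seedlings had 0.409 mM K2SO4 throughout and were also taken 5 days after transfer. Seedlings labelled 0h were taken before transfer. A treatment tag on the 0h arrays names the deficient medium, but their titles and source names do not.

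Chlorophyll is built in the plastid from glutamate through a chain of porphyrins that is shared with heme. Magnesium chelatase, whose large H subunit is CHLH, puts magnesium into protoporphyrin IX, and this opens the chlorophyll branch. The cyclase then closes the fifth ring, and the protochlorophyllide reductases, among them PORA, carry out the step that needs light. CAO oxidizes chlorophyllide a on the way to chlorophyll b, and CHLP makes the phytyl tail that anchors the pigment in the membrane. GLK1 and its paralog GLK2 are transcription factors of the GARP family, and the GLK members of that family promote chloroplast development and the expression of many of these enzymes in rice and other plants.

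All values are log2 of the deposited intensity, and differences carry the standard error (SE) of limma, a linear model fitted over all probe sets. A probe set was called when its Benjamini-Hochberg adjusted p was under 0.05 and the change was at least 2-fold. The median log2 value of an array lay between 2.79 and 2.83 for KR and between 2.70 and 2.74 elsewhere, so readings under about 4 lie near background. Among the tissue markers, the brightest probe set of the leaf gene RBCS (small subunit of Rubisco) read 13.21 to 13.86 on all 12 arrays. Another RBCS gene lay near background (2.91 to 3.24). The root silicon channel LSI1 also read high (8.32 to 12.19), so green tissue and root RNA were both present. Of 6 root markers listed, 3 could be matched. All 3 were called higher in KP than in 0h (median log2 difference 3.03), where 5.87% of all probe sets were. KP replicate 3 read higher than the other KP arrays in all 3 markers. Levels are per whole seedling, so fewer green cells and less of an RNA per green cell cannot be told apart.

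GLK1 was lowest in the KM seedlings. The KM arrays read 5.66, 6.04 and 5.98, against 9.04, 9.07 and 9.07 in the KP arrays. After resupply the KR arrays read 9.58, 9.82 and 9.60. Before transfer the 0h arrays read 8.72, 8.72 and 8.44. The groups did not overlap in any of the comparisons made here, and the order of the levels was KR, KP, 0h and KM. The log2 difference was -3.16 ± 0.11 (SE) for KM against KP, an 8.96-fold lower level, and 3.77 ± 0.11 for KR against KM, a 13.7-fold higher level. KR lay 0.61 ± 0.11 above KP. Of all 57258 probe sets, GLK1 ranked 55 from the lowest in KM against KP and 21 from the highest in KR against KM.

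**Figure D1:**
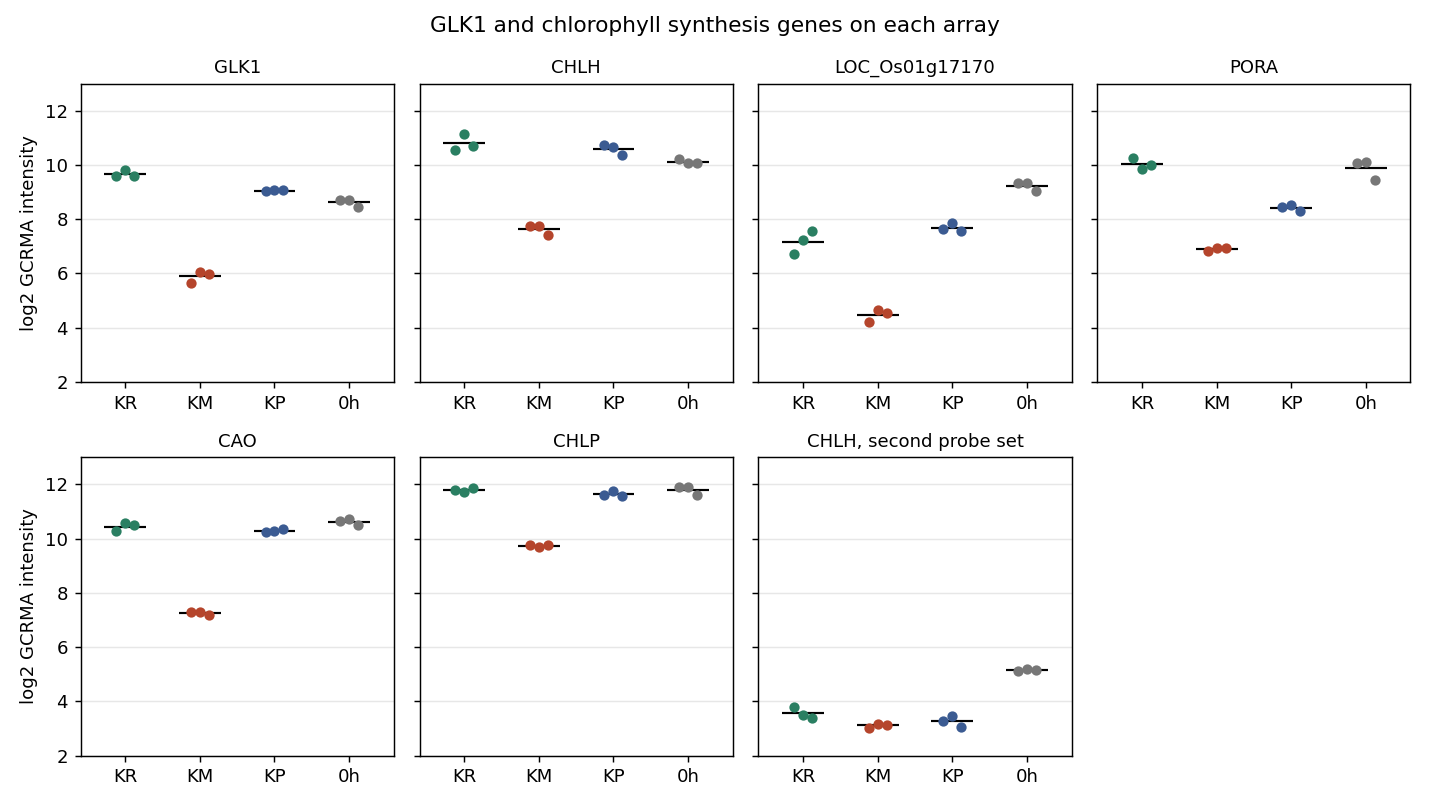
Log2 GCRMA intensity (y axis) of GLK1 and the chlorophyll synthesis genes on each of the 12 arrays, by group (x axis: KR, KM, KP and 0h; 3 points are 3 arrays and the bar is their mean). In the main probe set of each of the 6 genes the 3 KM arrays lie below the other 9 arrays, and the second CHLH probe set stays under 4 in KR, KM and KP.

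CHLH, the H subunit of magnesium chelatase, showed the same low point. Its brighter probe set read 7.73, 7.75 and 7.43 in KM, against 10.74, 10.65 and 10.37 in KP. The KR arrays read 10.57, 11.14 and 10.69 and overlapped the KP arrays. At 0h the values were 10.20, 10.07 and 10.08. The log2 difference was -2.95 ± 0.16 for KM against KP and 3.16 ± 0.16 for KR against KM. The study's category table pairs this probe set with LOC_Os07g46310, another magnesium chelatase locus, whereas the array annotation pairs it with CHLH, so a near-identical copy may share the signal. The second CHLH probe set lay near background in KR (3.39 to 3.79), KM (3.01 to 3.18) and KP (3.07 to 3.46), and did not show the fall in KM (-0.16 ± 0.12). It read 5.13 to 5.19 at 0h. The 2 CHLH probe sets therefore disagree.

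The cyclase was nearest to background among the 6 main probe sets. Its KM arrays read 4.22, 4.66 and 4.53, against 7.65, 7.87 and 7.56 in KP. The KR arrays spread most, at 6.71, 7.23 and 7.56, with only the third reaching the range of KP. At 0h it read 9.34, 9.34 and 9.02, its highest level. The log2 difference was -3.22 ± 0.21 for KM against KP and 2.70 ± 0.21 for KR against KM. With 16 added to each intensity before log2 these were -2.54 and 2.07.

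PORA, a light-dependent protochlorophyllide reductase, fell least in KM of the 6 genes and overshot most on resupply. It read 6.82, 6.94 and 6.93 in KM, against 8.45, 8.52 and 8.29 in KP. The KR arrays lay between 9.85 and 10.25, all above the KP arrays. The 0h arrays, at 10.08, 10.10 and 9.45, overlapped KR. The log2 difference was -1.52 ± 0.17 for KM against KP, 3.14 ± 0.17 for KR against KM and 1.62 ± 0.17 for KR against KP, a 3.07-fold higher level in KR.

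CAO, the chlorophyllide a oxygenase, had the tightest replicates of the 6 in the fit. It read 7.29, 7.31 and 7.20 in KM, against 10.26, 10.30 and 10.35 in KP. The KR arrays, at 10.28, 10.56 and 10.49, overlapped KP. The 0h arrays read 10.65, 10.71 and 10.51. The log2 difference was -3.04 ± 0.08 for KM against KP and 3.18 ± 0.08 for KR against KM, and KR and KP lay 0.14 ± 0.08 apart. RefSeq also lists the name Lls1 for this gene.

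CHLP, the geranylgeranyl reductase, was read by a single bright probe set. It was the brightest of the 6 and had the smallest difference of them in KR against KM. Its KM arrays read 9.78, 9.70 and 9.76, against 11.60, 11.75 and 11.57 in KP. The KR arrays read 11.78, 11.73 and 11.89, and the 0h arrays 11.91, 11.91 and 11.60. The log2 difference was -1.90 ± 0.09 for KM against KP and 2.05 ± 0.09 for KR against KM. KR, KP and 0h overlapped one another.

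Across the main probe sets, 6 of 6 genes were called lower in KM against KP, where 1.59% of all probe sets were (0.954% were called higher), and 6 of 6 were called higher in KR against KM, where 1.75% were (2.06% were called lower). All KM arrays lay below all KP arrays in 6 of 7 probe sets, as they did in 9.91% of all probe sets. These counts restate how the genes were picked. Their median log2 difference was -2.99 in KM against KP, beside 0.00 over all probe sets, and 3.15 in KR against KM, beside 0.04 over all probe sets. The sizes of the fall formed a group of 4 near 3 on the log2 scale (the cyclase, GLK1, CAO and CHLH), with CHLP and PORA apart. The return after 6 h, as a percentage of the log2 distance between KM and KP, was 83.8% for the cyclase, 105% for CAO, 107% for CHLH, 108% for CHLP, 119% for GLK1 and 206% for PORA. KR and KP arrays overlapped for the cyclase, CAO, CHLH and CHLP, so their return is not told apart from a full one. Over the alternatives KR against KP went as low as 0.04 for CAO, 0.04 for CHLH and 0.05 for CHLP. In KR against KP only PORA passed both thresholds upward, where 1.15% of all probe sets did, and none passed downward, where 2.06% did. These counts also follow from the picking, since KR against KP is the sum of the differences used for it, and they are no test. No source gives the clock time at which any group was harvested, and the 6 h of resupply and a later hour in KR cannot be told apart.

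The comparison of KP with 0h spans the 5 days of growth on potassium. Its 0h arrays took no part in the picking of the genes, although its KP arrays did. Root markers and several clock genes were higher in KP than at 0h, and the hours of harvest are not stated. Growth, the share of root and the hour therefore cannot be told apart in this comparison. The cyclase fell (log2 difference -1.54 ± 0.21, limma adjusted p = 0.000369) and so did PORA (-1.46 ± 0.17, limma adjusted p = 0.000138), each with all KP arrays below all 0h arrays. The dim second probe set of CHLH fell too (-1.89 ± 0.12, limma adjusted p = 2.66e-06), though its KP readings lie near background and with 16 added to each intensity the difference was -1.01. Over the same step 5.71% of all probe sets were called lower and 5.87% higher. GLK1 differed by 0.43 ± 0.11 (limma adjusted p = 0.0187), the brighter CHLH probe set by 0.47 ± 0.16 (limma adjusted p = 0.0562), CAO by -0.32 ± 0.08 (limma adjusted p = 0.00996) and CHLP by -0.16 ± 0.09 (limma adjusted p = 0.255). None of these 4 reached 2-fold. The KM level was below both the KP and the 0h level in the main probe set of all 6 genes.

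The other steps of the pathway did not all follow the 6 genes. Of 18 further synthesis genes listed, 9 could be matched to a probe set: GluTR, GSA, HEMB, HEMD and PPOX1 of the part shared with heme, and CHLD, CHLI, PORB and CHLG of the chlorophyll branch. In KM against KP 1 of the 9 was called lower, none was called higher and 8 were not called. At an adjusted p under 0.05 and any fold, 3 were lower and 3 higher, where 4.34% and 6.1% of all probe sets were. The 3 lower genes (PORB, GluTR and HEMB) stayed under 0.05 in the 20 other fits and scalings tried. Of the 3 higher ones, GSA was at or over 0.05 in 17 of the 20, PPOX1 in 2 and CHLD in 1, and none of the 3 passed the test that the methods name. The median log2 difference of all 9 was 0.25.

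PORB, the second protochlorophyllide reductase, was the gene that fell. It read 9.05, 9.05 and 9.17 in KM, against 10.14, 10.17 and 10.12 in KP (-1.05 ± 0.06, limma adjusted p = 1.09e-05). On resupply it rose 4.28-fold (limma adjusted p = 2.63e-07), to 11.17, 11.18 and 11.22 in KR. KR also lay above KP (1.05 ± 0.06, limma adjusted p = 1.39e-05), though with the arrays set to equal medians or quantile normalized this was 0.94 and 0.97, short of 2-fold. PORB therefore shared the overshoot of PORA. Its probe set carries the suffix x, which marks probes that can also match other transcripts, and PORA is a close relative.

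GluTR, the glutamyl-tRNA reductase that commits glutamate to the pathway, lay just short of the 2-fold threshold in KM against KP (-0.95 ± 0.08, limma adjusted p = 0.000133). Its KM arrays read 9.48, 9.75 and 9.59, against 10.46, 10.69 and 10.53 in KP. Without KM replicate 2 or KP replicate 1 the difference passed 2-fold (-1.02 for KM replicate 2) and the gene was called. On resupply GluTR rose (1.51 ± 0.08, limma adjusted p = 8.78e-06), to 11.08, 11.11 and 11.18. HEMB, the next enzyme but one, differed in the same directions by less (-0.82 ± 0.06 for KM against KP, then 0.53 ± 0.06 for KR against KM).

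CHLD, the D subunit of magnesium chelatase, went the other way from CHLH. It read 10.37, 9.96 and 9.99 in KM, against 9.21, 9.52 and 9.35 in KP, a log2 difference of 0.75 ± 0.12 that did not reach 2-fold (limma adjusted p = 0.00517). PPOX1, which oxidizes protoporphyrinogen, differed by 0.73 ± 0.14 (limma adjusted p = 0.012) and GSA, which forms aminolevulinate, by 0.44 ± 0.12 (limma adjusted p = 0.0466, and 0.00562 to 0.31 over the other fits and scalings). CHLG, the synthase that joins the phytyl tail, differed by 0.25 ± 0.10 (limma adjusted p = 0.216) and HEMD by 0.40 ± 0.15 (limma adjusted p = 0.171). CHLI lay near background in KR, KM and KP (3.04 to 3.58), so its subunit cannot be read from this probe set. In KR against KM, GluTR and PORB were the 2 of 9 called higher, beside 1.75% of all probe sets, and none was called lower, beside 2.06%.

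**Figure D2:**
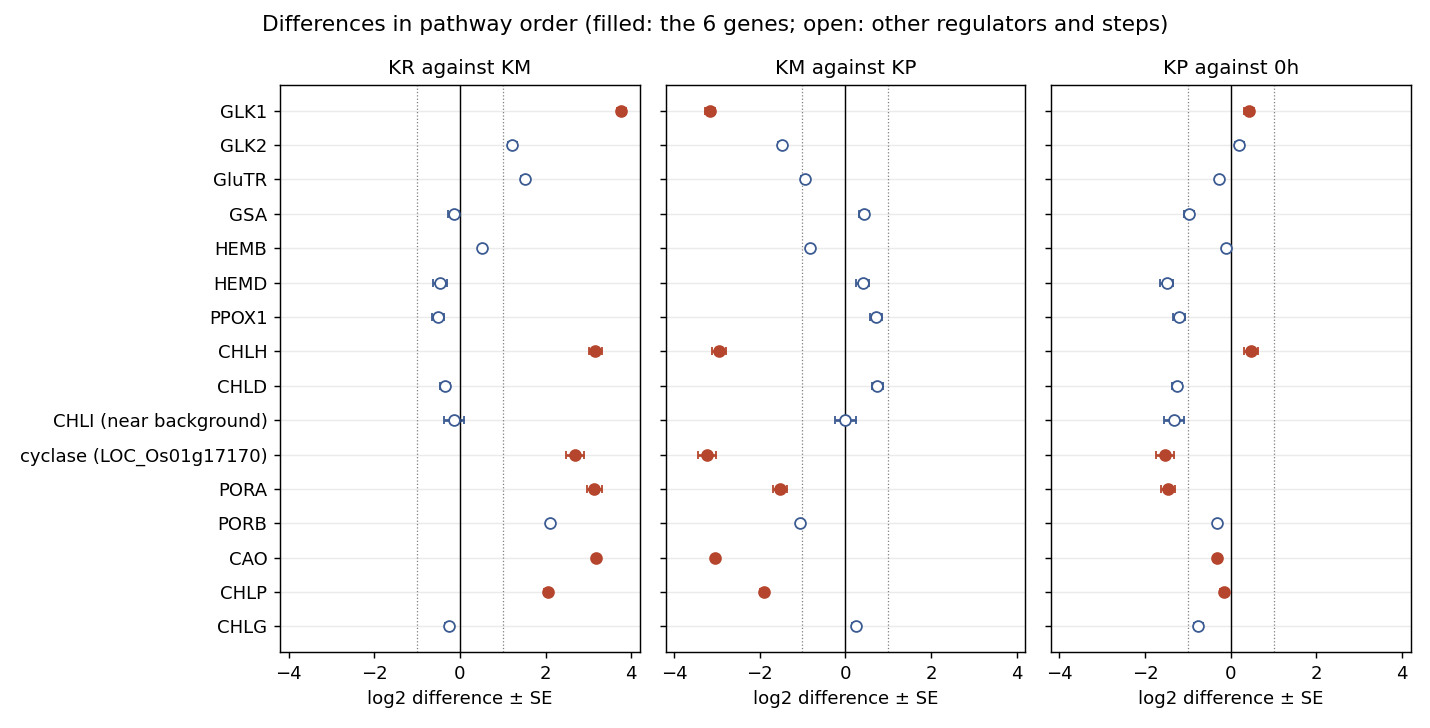
Log2 differences with their limma SE (x axis) for the regulators and the enzymes in pathway order (y axis), in KR against KM, KM against KP and KP against 0h; filled points are the 6 genes, open points the others, and dotted lines mark 2-fold. The filled points lie beyond 2-fold to the right in KR against KM and to the left in KM against KP, while CHLD, PPOX1, GSA, HEMD and CHLG lie within 2-fold of no difference in both.

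From 0h to KP the further genes moved down. In KP against 0h 4 of 9 were called lower (HEMD, PPOX1, CHLD and CHLI) and none higher, and 8 of 9 were lower at an adjusted p under 0.05 and any fold, where 15.1% of all probe sets were. The call of CHLI, dim in KP, was lost with 16 added to each intensity (-0.68) and with the test per probe set that the methods name. CHLD averaged 9.36 ± 0.15 in KP and 10.62 ± 0.12 at 0h (SD, n = 3 each). The cyclase and PORA fell in the same step, while GLK1, the brighter CHLH probe set, CAO and CHLP stayed within 2-fold.

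GLK2, the paralog of GLK1, has 4 probe sets, and all of them were lower in KM. The brightest read 8.63, 8.78 and 8.65 in KM, against 10.03, 10.23 and 10.24 in KP (-1.48 ± 0.10, limma adjusted p = 4.84e-05), and 9.82, 9.84 and 10.08 in KR (1.23 ± 0.10 against KM, limma adjusted p = 9.61e-05). The other 3 differed by -1.33, -1.25 and -0.91 in KM against KP, and the last did not reach 2-fold. The last 2 averaged 3.76 and 3.73 in KM, near background, and with 16 added to each intensity the one at -1.25 differed by -0.71 and was not called. In KR against KP none of the 4 was called (-0.27 to -0.03). GLK2 thus had a smaller fall than GLK1 (-3.16 ± 0.11) and a mean no higher than KP on resupply, though the difference between the paralogs was not tested. In KP against 0h the GLK2 probe sets split: the 2 brighter ones differed by 0.20 and 0.17 and were not called, while the 2 dimmer ones fell by 1.22 and 1.03. Both of these calls were lost with 16 added to each intensity (-0.92 and -0.71), and the second also without KP replicate 2 or without 0h replicate 3 (both -0.98). Both GLK2 and PORB stand in the study's category table of changed genes, so their direction was known beforehand.

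**Figure D3:**
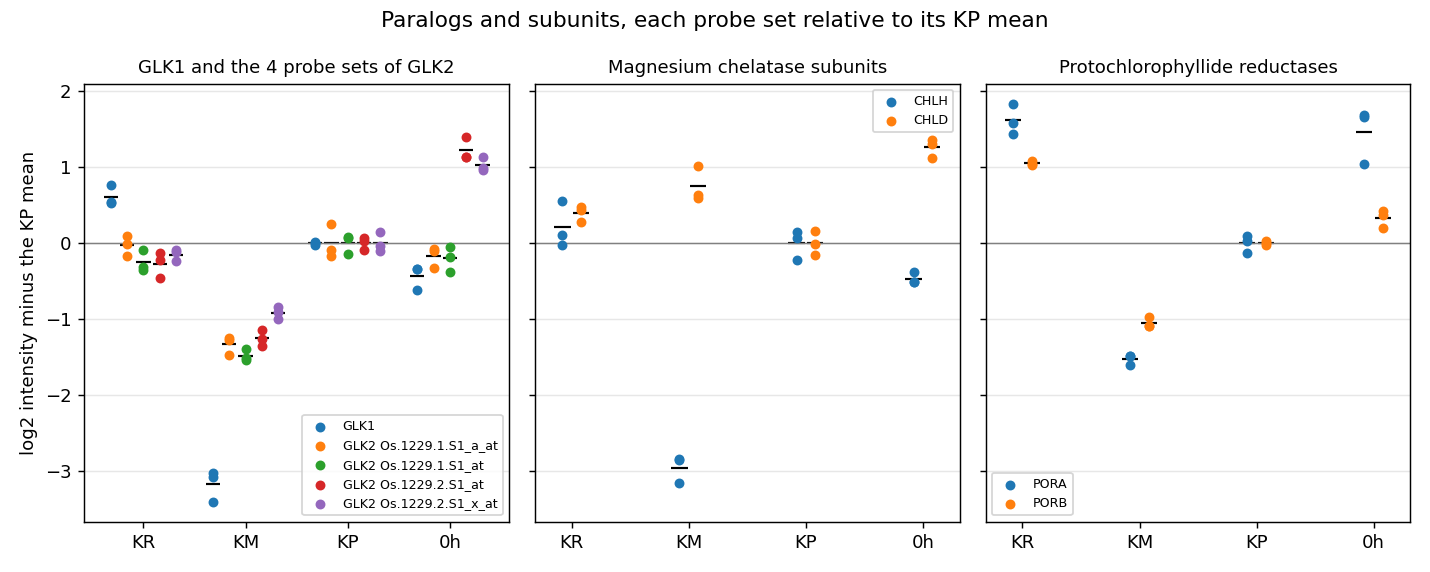
Log2 intensity of each array minus the KP mean of the same probe set (y axis) by group (x axis: KR, KM, KP and 0h), for GLK1 with the 4 probe sets of GLK2, for the chelatase subunits CHLH and CHLD, and for PORA with PORB; points are arrays and bars are means of 3. In KM, GLK1 differs from KP by -3.16 and the GLK2 probe sets by -1.48 to -0.91, CHLH differs by -2.95 and CHLD by 0.75, and in KR both PORA and PORB lie above KP.

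Genes with a pattern like that of GLK1 were ranked by the root mean square difference of mean-centred log2 values over the 12 arrays, as a description. Among 17899 genes with an annotated probe set, outside the 6, the nearest was LOC4330408 (0.24), which RefSeq does not name, with mean values of 6.77 in KR, 3.17 in KM, 6.21 in KP and 6.19 at 0h. Next came RCABP89, a light-harvesting chlorophyll a/b binding protein (0.26), and LOC_Os04g41560, a putative B-box zinc finger protein (0.38). LOC4343604 (0.48) and LOC4330793 (0.51) have no RefSeq name. The study's category table lists a probe set that differs from that of LOC4343604 only in its suffix, as a putative chlorophyll a/b binding protein. LOC_Os02g46460, a putative peptide transporter, was the sixth (0.54). The names LOC_Os04g41560 and LOC_Os02g46460 are those that the study's tables pair with the probe sets. On the same measure CHLH stood at 0.28, with 2 of these genes nearer to GLK1. CAO stood at 0.45 with 3 nearer, CHLP at 0.66 with 15 nearer and PORA at 0.75 with 23 nearer. The cyclase was the least alike, at 1.14 with 339 genes nearer, and among the main probe sets its 0h level stood farthest above KP.

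Clock genes time light-harvesting genes to the day in plants. Of 7 clock genes, 3 were called in KM against KP, 1 higher and 2 lower, where 0.954% and 1.59% of all probe sets were. CCA1, a morning gene, read 6.28, 6.42 and 5.98 in KM, against 10.89, 11.12 and 10.80 in KP (-4.71 ± 0.18, limma adjusted p = 1.59e-06). Unlike the 6 genes it was not called on resupply (0.42 ± 0.18, limma adjusted p = 0.0755), with 6.44, 6.51 and 6.99 in KR. The probe set of CCA1 stands in the study's category table of changed genes, so its direction was known beforehand. PRR95, a daytime gene, fell in KM against KP (-1.09 ± 0.05, limma adjusted p = 8.56e-06) and rose in KR against KM (2.84 ± 0.05, limma adjusted p = 9.73e-08) to above KP (1.75 ± 0.05, limma adjusted p = 2.54e-06). PORA and PORB had the same order of KR, KP and KM but not of 0h, since PRR95 rose in KP against 0h (2.17 ± 0.05, limma adjusted p = 3.79e-08) while PORA fell and PORB differed by -0.33. LUX, an evening gene, rose in KM (1.08 ± 0.09, limma adjusted p = 0.000132) and fell on resupply (-1.04 ± 0.09, limma adjusted p = 0.00011). The other 4 (GI, PRR37, PRR1 and PRR73) differed by 0.74, 0.31, 0.17 and 0.02 in KM against KP and were called neither there nor in KR against KM. Short of 2-fold, PRR37 (0.84, limma adjusted p = 0.00536), PRR73 (0.80, limma adjusted p = 0.000851) and PRR1 (0.62, limma adjusted p = 0.000612) were higher in KR than in KM. GI differed there by 0.18 (limma adjusted p = 0.378). In KR against KP 2 of the 7 were called higher and 1 lower, where 1.15% and 2.06% of all probe sets were. In KP against 0h 4 of the 7 clock genes were called higher and none lower, where 5.87% and 5.71% of all probe sets were. GI (4.23 ± 0.16, limma adjusted p = 2.39e-07) and LUX (4.18 ± 0.09, limma adjusted p = 1.92e-08) differed most. The part of the hour of harvest in the levels of GLK1 and the chlorophyll genes was not tested.

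Leaf markers differed among themselves. The brightest RBCS probe set read 13.57, 13.63 and 13.67 in KM, against 13.26, 13.55 and 13.57 in KP (0.16 ± 0.08, limma adjusted p = 0.385). The dimmer probe sets of this gene were not called there either (-0.11 to -0.03). The probe set at -0.11 was lower in KR than in KP (-0.84 ± 0.22, limma adjusted p = 0.0147), short of 2-fold. In KP against 0h the dimmer probe sets differed by 1.23, 1.13 and 0.09, the last of them near background. RCA, the Rubisco activase, fell in KM in its brightest probe set (-1.21 ± 0.11, limma adjusted p = 0.000285). That probe set was not called on resupply (0.16 ± 0.11, limma adjusted p = 0.263). The other RCA probe sets differed by -1.33 to -1.05 in KM against KP. On resupply they differed by 0.34 to 0.62, short of 2-fold, the largest with limma adjusted p = 0.00193. The summed intensity of the 3 leaf markers was 18290 to 19180 in KM, against 23840 to 26670 in KP. It was 20750 to 21510 in KR. The 3 root markers summed to 2435 to 3028 in KM, against 2826 to 5279 in KP, and to 4861 to 5302 in KR. None of them (LSI1, LSI2 and AMT1-2) was called in KM against KP or on resupply. LSI1 lay just short of 2-fold on resupply (0.99 ± 0.19, limma adjusted p = 0.00349). Without KP replicate 3, the KP array with the highest root markers, the fall of GLK1 in KM was 3.16 on the log2 scale and that of the cyclase 3.29.

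**Figure D4:**
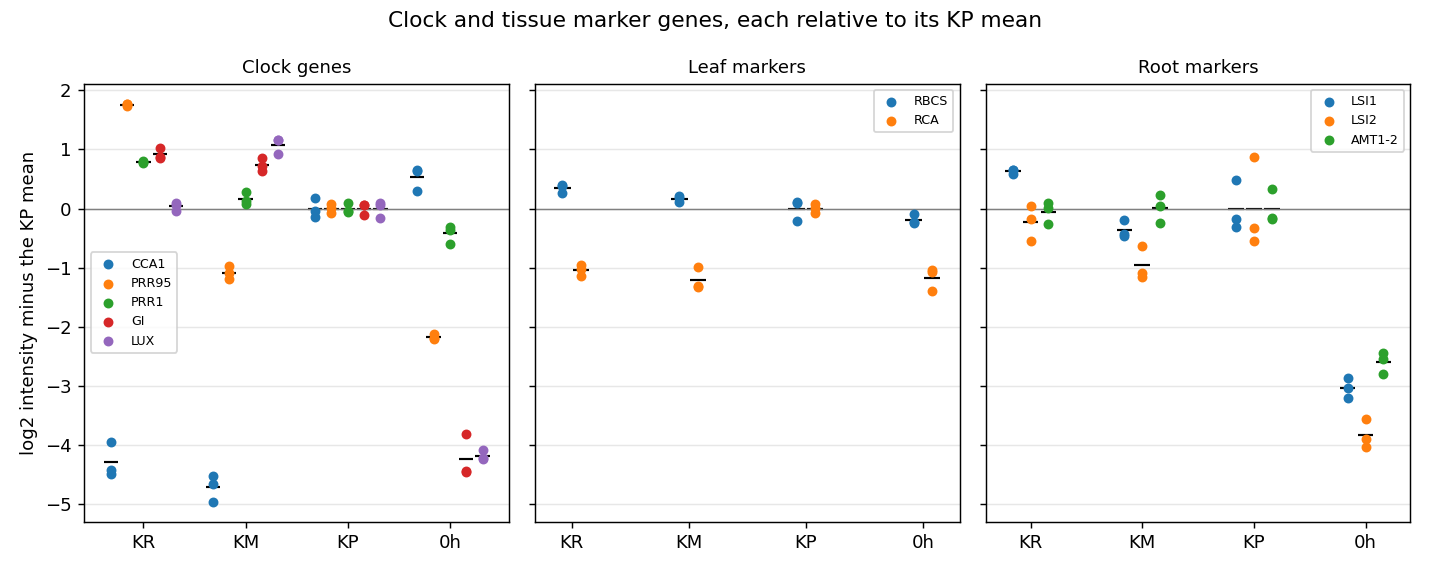
Log2 intensity of each array minus the KP mean of the same gene (y axis) by group (x axis: KR, KM, KP and 0h), for 5 clock genes, 2 leaf markers and 3 root markers; points are arrays and bars are means of 3. CCA1 means differ from KP by -4.29 in KR and -4.71 in KM, the brightest RBCS probe set stays near its KP level, and the root markers are lowest at 0h.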

How the data were processed

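RNA of 12 seedling samples was hybridized on the Affymetrix Rice Genome Array. Per the submitters' processing notes and the study's methods, scans were read in GCOS 1.2.1, and the authors normalized by GCRMA in ArrayAssist before deposit; the deposited intensity values are these signals on a linear scale. GCRMA pulls dim probe sets toward a common floor, which shrinks or hides changes near background. The number of arrays limits the precision. Log2 was taken with a floor of 1, and no value lay under it. The 123 control probe sets were left out, which leaves 57258. The main test was limma 3.58.1 (R 4.3.3) with 1 mean per group over all 12 arrays, and Benjamini-Hochberg adjustment over all probe sets.

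Groups follow titles and source names. The labels do not say whether replicates came from separate cultures, so p values measure the spread between these samples. The members and lists were chosen with earlier results of these data known. The list names were fixed by role: 5 synthesis genes of the shared part, 4 of the chlorophyll branch, 4 turnover genes, 1 heme branch gene, GLK2, 7 clock genes, 3 leaf and 3 root markers could be matched by name, through RefSeq symbols and synonyms, to probe sets with 1 gene. The brightest probe set stands for a gene. Named genes are all members, all matched list genes and the 6 genes nearest to GLK1. Synonyms for GluTR, HEMB, PCL1 (LUX) and RBCS were added when the annotation was at hand. The fit was tested on simulated data with known changes. Alternatives were other scalings, filters, pseudocounts, thresholds, tests, a replicate block and arrays left out in turn. No sequences are shown.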

Additional observations from a re-analysis of the deposited data

How the results depend on the processing

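Every log2 difference of the 6 genes kept its sign under all alternatives run: for GLK1 it ran from -3.24 to -2.86 in KM against KP and from 3.46 to 3.85 in KR against KM, for CAO from -3.06 to -2.91 and from 3.05 to 3.26, and for the cyclase from -3.32 to -2.54 and from 2.07 to 2.93. Over the 2376 gene-level alternatives none reversed a call. Outside the other fold thresholds 20 changed a call, among them the second SGR probe set in KM against KP, lost in the methods' t-test (adjusted p = 0.0694) and without KM replicate 1 or KP replicate 1. All probe sets called numbered 1457 in KM against KP (722 by the methods' t-test, 3364 at 1.5-fold, 5979 with no fold threshold), 2183 in KR against KM (1419 with the pseudocount of 16, 5066 at 1.5-fold, 26105 with no fold threshold), 1834 in KR against KP (4694 and 25253) and 6632 in KP against 0h (11367 and 15284). With arrays left out in turn they ran from 1218 to 1493, from 2022 to 2199, from 1729 to 1886 and from 6456 to 6735. Of the 9 other synthesis genes 1 was called in KM against KP, 5 at 1.5-fold and 6 with no fold threshold, and 1 to 2 with arrays left out in turn (2 without KM replicate 2 or KP replicate 1). In KR against KM 2 were called, 6 with no fold threshold and 2 to 2 with arrays left out. In KR against KP 1 was called, 0 with quantile normalization, 0 with equal medians, 4 with no fold threshold and 1 to 1 with arrays left out. Under both scalings PORB, the gene concerned, kept its adjusted p (4.98e-05 and 2.13e-05) and missed the 2-fold size. In KP against 0h 4 were called, 8 with no fold threshold and 4 to 5 with arrays left out. Leaving out near-background probe sets, chosen after seeing the data, changed no count in KM against KP.

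Same-numbered arrays of different groups did not deviate together (r from -0.14 to 0.15 over 18 pairs, 18171 probe sets). No pairing by number was seen, though this check cannot exclude one. With the replicate block 1361, 2158, 1801 and 6576 probe sets were called in the 4 comparisons, the counts of other synthesis genes stayed at 1, 2, 1 and 4, and 5 of 12 arrays correlated best with their own number. The signal of CHLI, of the dim CHLH probe set, of the 2 dimmest GLK2 probe sets and of the cyclase in KM is limited by background.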

Other observations

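Of 4 genes that take chlorophyll apart, SGR moved most between the KR and KP groups. SGR, the magnesium dechelatase that starts breakdown, has 2 probe sets. The brighter read 8.15, 8.36 and 8.94 in KR, against 10.15, 9.99 and 10.03 in KP, and was lower in KR (log2 difference -1.58 ± 0.22, limma adjusted p = 0.000909). The dimmer was lower as well (-2.39 ± 0.16, limma adjusted p = 3.34e-05). In KM against KP the dimmer fell (-1.09 ± 0.16, limma adjusted p = 0.00249) and the brighter differed by -0.83 ± 0.22, short of 2-fold. In KR against KM the dimmer was lower again (-1.29 ± 0.16, limma adjusted p = 0.000479), and the brighter differed by -0.74 ± 0.22 (limma adjusted p = 0.0248), short of 2-fold. Both were higher in KP than at 0h (1.41, limma adjusted p = 9.35e-05, and 1.31, limma adjusted p = 0.0015). SGR thus stood below KP on resupply, where GLK1, PORA and PORB stood above it. NYC1, a chlorophyll b reductase, differed by 0.61 ± 0.07 in KM against KP and by -0.55 ± 0.07 in KR against KM, neither reaching 2-fold, and rose in KP against 0h (1.61 ± 0.07, limma adjusted p = 5.3e-07). NOL and RCCR1 were not called in any of the 4 comparisons.

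On the heme branch, the heme oxygenase SE5, which makes the precursor of the phytochrome chromophore, fell in KM against KP (-1.18 ± 0.13, limma adjusted p = 0.00055). Its arrays read 8.83, 9.17 and 9.13 in KM, against 10.14, 10.33 and 10.19 in KP. On resupply it differed by 0.63 ± 0.13 from KM, short of 2-fold. In KP against 0h it rose (1.77 ± 0.13, limma adjusted p = 6.16e-06), a step in which the cyclase and PORA fell.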
